A study of Mus musculus with 12 samples.

Results

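The T-cell-attracting chemokine genes Ccl5, Ccl17, Ccl22 and Cxcl16, together with Ccl24, were followed in mouse alveolar macrophages after exposure to multiwalled carbon nanotubes (MWCNT). All array probes that the platform annotation assigned to these 5 symbols were taken, which gave 6 probes out of 45281, and 5 genes out of 19057 named on the array. Cxcl16 had 2 probes and each of the others 1. The Ccl24 probe did not pass the detection filter, and the other 5 probes did.

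Alveolar macrophages are phagocytes that live in the airspaces of the lung. They came from lavage of 12 C57Bl/6 mice at day 60 after oropharyngeal instillation, with a stated purity above 90%. The 6 control mice had received 35% surfactant in saline, and the 6 MWCNT mice 100 µg of MWCNT in the same vehicle, so that both groups had been given surfactant. Each array, an Illumina Mouse WG-6 v2 bead array, held the RNA of 1 animal, and the labels give neither age nor sex.

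Chemokines are small secreted proteins that steer leukocytes through receptors on the responding cell. CCL5 draws T cells, monocytes and eosinophils. CCL17 and CCL22 share the receptor CCR4, which type 2 helper and regulatory T cells carry, and both genes are known targets of interleukin-4 in macrophages. CXCL16 is made as a membrane-bound protein that binds CXCR6 on T cells and natural killer T cells, and the protease ADAM10 can release it. CCL24 acts on CCR3 and draws eosinophils.

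Ccl5, Ccl17 and Cxcl16 were higher on the MWCNT arrays by more than the spread between animals. Ccl22 was higher from a level at background, and Ccl24 was barely detected in either group. Levels are log2 intensities after background correction and quantile normalization. Changes are MWCNT minus control with the standard error (SE) of the limma fit, and calls were made at an adjusted p under 0.05 over 13210 features. Of the 5 genes 4 were tested, and these 4 were called raised, beside 6.98% of all features called raised and 5.89% called lowered, which are 922 and 778 features. Median scaling between arrays gave 1688 raised and 214 lowered and put the median change of all features at 0.10 on the log2 scale. Without quantiles, setting each array to its kept probes' median gave 809 raised and 1861 lowered with a median of -0.10. Ccl22 entered the test through its MWCNT arrays alone. The other 3 were detected on every control array, and 5.04% of the features so detected were called raised. The median change of the 4 was 1.25 on the log2 scale, beside -0.02 over all features.

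Depth of signal was similar but not equal between groups. The share of probes detected, at a detection p under 0.05, ran from 38.0% to 39.3% in controls and from 39.1% to 40.5% with MWCNT, and the mean background signal from 132 to 149 and from 143 to 170. MWCNT arrays 5 and 6 carried Y-linked transcripts, with 3 of 8 Y-linked probes detected at a detection p under 0.01, and no other array had more than 1. Results for the chemokines are therefore given with and without these 2 arrays. Of 15 alveolar macrophage markers 12 were on the array, and all 10 that were tested were detected on all 12 arrays. Among them the lipase gene Lpl was at 15.07 ± 0.06 (SD, n = 6) in controls and 15.05 ± 0.07 with MWCNT, and the chitinase-like gene Chil3 at 14.67 ± 0.08 and 14.59 ± 0.06. Siglecf, which encodes a lectin of alveolar macrophages, and Fabp1 were detected on no array.

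Ccl5 transcript was 3.27-fold higher with MWCNT. Its levels ran from 7.44 to 8.07 with a median of 7.79 on the 6 control arrays, and from 8.77 to 9.96 with a median of 9.60 on the 6 MWCNT arrays. The lowest MWCNT array lay above the highest control array, which held for 4.07% of all features. The change was 1.71 ± 0.19 (SE, n = 6 per group, limma adjusted p = 7.29e-05). Before any correction the scanner signal was 2.33 ± 0.29 (SD) times the background of its array in controls and 6.29 ± 1.85 times with MWCNT. MWCNT array 5 was the lowest of its group and array 4 the next, at 9.28. Without the arrays with Y-linked signal the change was 1.85 (limma adjusted p = 1.16e-05), and in the authors' processed values it was 1.03 (limma adjusted p = 0.000496).

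**Figure D1:**
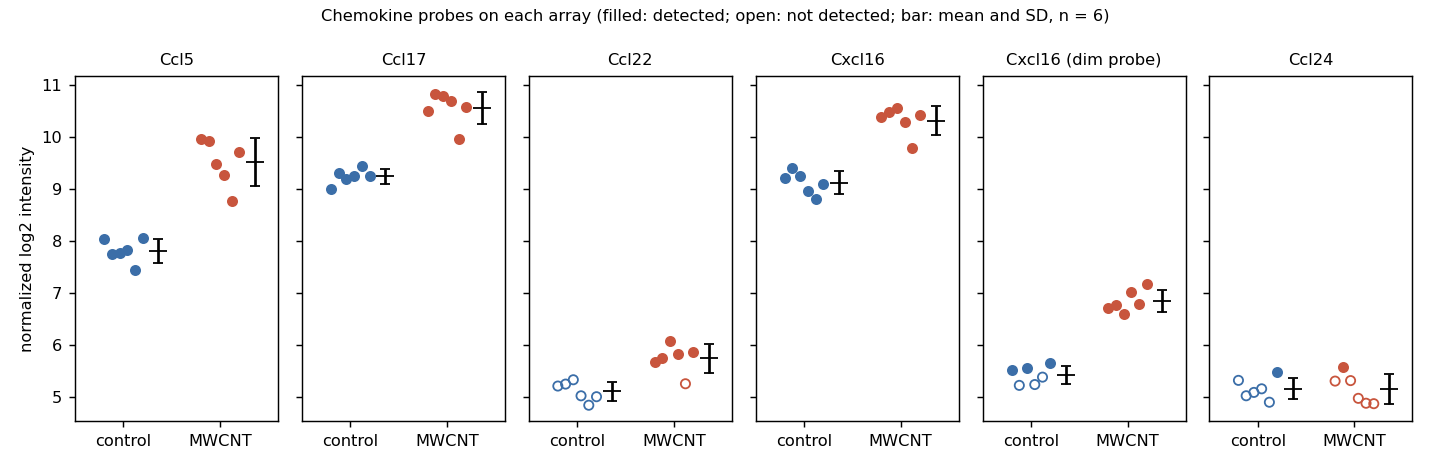
Normalized log2 intensity (y axis) of each of the 6 probes on the 6 control and 6 MWCNT arrays (x axis), 1 point per array, filled where the probe was detected and open where it was not, with the group mean and SD beside the points. Ccl5, Ccl17 and both Cxcl16 probes show no overlap between groups, 1 MWCNT array overlaps the controls for Ccl22, and the Ccl24 groups cover each other.

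Ccl17 and Ccl22, the CCR4 ligands, are neighbours on mouse chromosome 8, with Cx3cl1 as the only protein-coding gene between them in RefSeq. Their promoters are shown as the only ones among the 5 genes for which sequence was matched. They are 300-base windows from RefSeq (GRCm38.p6), 250 bases before to 50 after the start site, on the plus strand at chr8:94810203-94810502 for Ccl17 and chr8:94745434-94745733 for Ccl22. Capitals mark matches to the motifs searched:
Ccl17: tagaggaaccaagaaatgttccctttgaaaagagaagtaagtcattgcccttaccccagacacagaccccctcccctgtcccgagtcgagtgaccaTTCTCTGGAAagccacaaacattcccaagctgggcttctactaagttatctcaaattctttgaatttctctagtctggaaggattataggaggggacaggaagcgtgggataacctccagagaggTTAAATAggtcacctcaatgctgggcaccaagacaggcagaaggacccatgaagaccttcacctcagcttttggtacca
Ccl22: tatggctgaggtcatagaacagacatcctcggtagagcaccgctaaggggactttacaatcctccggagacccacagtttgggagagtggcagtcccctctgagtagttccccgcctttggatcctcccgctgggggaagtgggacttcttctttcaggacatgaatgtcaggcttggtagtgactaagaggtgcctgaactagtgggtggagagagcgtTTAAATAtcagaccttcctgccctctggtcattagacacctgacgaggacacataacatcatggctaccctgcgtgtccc

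Both windows held the AT-rich string TTAAATA just before the start site, with its first base at -29 in Ccl17 and at -30 in Ccl22. This string was chosen after the sequences were read, and 4.51% of the 32851 RefSeq promoter windows of this length hold it on either strand. The Ccl17 window also held a match to the STAT6 spacing (TTC and GAA with 4 bases between) at -154, which 6.95% of windows hold. Neither window matched the kappaB consensus (4.51% of windows), TATAAA (13.6%), the AP-1 string TGANTCA (7.81%) or, as the interferon response string, GAAA and GAAA with 2 bases between (3.44%). Both strands were searched, and the matches do not overlap each other. Promoter sequence was matched for 2 of the 5 genes; Ccl5, Cxcl16 and Ccl24 are named only.

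Ccl17 transcript was 2.49-fold higher with MWCNT. Its control levels ran from 9.01 to 9.45 with a median of 9.26, and its MWCNT levels from 9.97 to 10.83 with a median of 10.64. All 6 MWCNT arrays lay above all control arrays, and array 5 was again the lowest of the MWCNT group. The change was 1.31 ± 0.13 (n = 6 per group, limma adjusted p = 5.45e-05). It was 1.46 without the arrays with Y-linked signal (limma adjusted p = 1.77e-06) and 1.06 in the authors' processed values (limma adjusted p = 0.000226).

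Ccl22 was at background on the control arrays, where its detection p ran from 0.0737 to 0.268. It was detected on 5 of 6 MWCNT arrays. Control levels ran from 4.85 to 5.34 with a median of 5.12, and MWCNT levels from 5.26 to 6.07 with a median of 5.80. MWCNT array 5 did not detect it and lay within the control range, while the other 5 MWCNT arrays lay above every control. With the main background correction Ccl22 was at least 1.22-fold higher with MWCNT, from fitted means of 5.12 and 5.75. This bound sets the MWCNT mean against the lowest signal among detected probes of each control array, or the probe's own signal where that was higher. The fitted change was 0.63 ± 0.13 (limma adjusted p = 0.00501), and moved with the treatment of background. It was 0.36 with normexp and an offset of 50 (limma adjusted p = 0.00818), 0.19 without correction (limma adjusted p = 0.0208) and 0.09 in the authors' processed values (limma adjusted p = 0.0370). The values of 0.19 and 0.09 lay under the bound, which is 0.28 on the log2 scale. Without the arrays with Y-linked signal the fitted change was 0.72 (limma adjusted p = 0.00111).

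Cx3cl1, the membrane-bound chemokine gene between Ccl22 and Ccl17, differed by -0.28 ± 0.09 (adjusted p = 0.0639). It was called lowered without control array 6 (-0.33, adjusted p = 0.0326) and under 5 other alternatives, with adjusted p from 0.0287 to 0.0466. Beyond Ccl17 the next gene, Ciapin1, differed by 0.15 ± 0.06 (adjusted p = 0.113).

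Cxcl16 transcript was 2.28-fold higher by its brighter probe. Control levels ran from 8.82 to 9.41 with a median of 9.16, and MWCNT levels from 9.79 to 10.55 with a median of 10.40, without overlap. The change was 1.19 ± 0.13 (n = 6 per group, limma adjusted p = 8.58e-05). It was 1.30 without the arrays with Y-linked signal (limma adjusted p = 1.38e-05) and 0.93 in the authors' processed values (limma adjusted p = 0.000249). The dimmer probe was detected on 3 of 6 control arrays and on all 6 MWCNT arrays. Its levels ran from 5.23 to 5.66 with a median of 5.46 in controls and from 6.60 to 7.19 with a median of 6.78 with MWCNT, also without overlap. Its change was 1.41 ± 0.11 (limma adjusted p = 1.69e-05 over all 19291 kept probes, of which 6.04% were called raised). The probes ordered the MWCNT arrays differently. Array 5 was lowest by the brighter probe, at 9.79 against 10.29 for the next, and by the dimmer probe it was at 6.79 and array 3 was lowest.

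The next 2 protein-coding genes beyond Cxcl16 on chromosome 11 were also called raised, and were named after their values were seen. Zmynd15, whose RefSeq interval overlaps that of Cxcl16 and whose symbol RefSeq lists among the other names of Cxcl16, rose by 1.61 ± 0.23 (adjusted p = 0.000439). A second Zmynd15 probe was detected on no control array and 5 MWCNT arrays. Whether these probes detect Cxcl16 transcript was not tested. Tm4sf5, a tetraspanin-like membrane protein gene, was detected on no control array and on all 6 MWCNT arrays (limma adjusted p = 3.48e-05). On the other side Med11, Arrb2 and Pelp1 differed by -0.13, -0.18 and 0.17, with adjusted p from 0.182 to 0.330.

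Ccl5 lies at the edge of a chemokine cluster on chromosome 11, and the next 4 protein-coding genes on that side, Ccl9, Ccl6, Ccl3 and Ccl4, were called raised. Ccl4 and Ccl3, genes of inflammatory chemokines, rose by 1.94 ± 0.26 (adjusted p = 0.000343) and 1.26 ± 0.28 (adjusted p = 0.00957). Ccl9 rose by 0.98 ± 0.25 (adjusted p = 0.0180). Ccl6 was called raised by 0.36 ± 0.09 (adjusted p = 0.0237), which no longer held without MWCNT array 2, MWCNT array 3 or control array 6 (adjusted p from 0.0505 to 0.0523) and with scaling to the kept probes without quantiles (0.18, adjusted p = 0.222). On the other side Taf15 and Mmp28 differed by 0.02 ± 0.12 (adjusted p = 0.935) and -0.22 ± 0.18 (adjusted p = 0.461). Ccl9, Ccl6 and Ccl3 are named for their place beside Ccl5.

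Ccl24 was detected on control array 6 and MWCNT array 2 only, and so was not tested among the kept probes. Control levels ran from 4.91 to 5.48 with a median of 5.13, and MWCNT levels from 4.88 to 5.58 with a median of 5.15. The ranges covered each other. With no filter on dim probes the difference was -0.01 ± 0.13 (limma adjusted p = 0.986 over 29453 features). The raw signal was 1.11 ± 0.05 (SD, n = 6) times background in controls and 1.13 ± 0.08 times with MWCNT. Both lay close to background, from where a fall is not detectable.

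Changes of different size were compared within arrays, as the difference of 2 genes' log2 values, by exact two-sided permutation tests over the 12 arrays with adjustment over 6 pairs. The smallest p that 6 against 6 arrays can give is 0.00216. The 3 pairs with Ccl22 are not ordered here, since its control level lay at background and its change is known only as a bound. Ccl5 changed by 0.52 ± 0.15 (SE, log2 scale) more than Cxcl16 (exact permutation adjusted p = 0.00649). That call ended in the authors' processed values (0.10, exact adjusted p = 0.403), without background correction (0.26, exact adjusted p = 0.0942) and with the mean of both Cxcl16 probes (0.41, exact adjusted p = 0.0519). The change of Ccl5 exceeded that of Ccl17 by 0.39 ± 0.20 (exact permutation adjusted p = 0.0831), and passed the threshold without control array 1 (0.49, exact adjusted p = 0.0416). In the authors' processed values this difference was -0.03, exact adjusted p = 0.829. Ccl17 and Cxcl16 differed by 0.12 ± 0.13 (exact permutation adjusted p = 0.387).

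**Figure D2:**
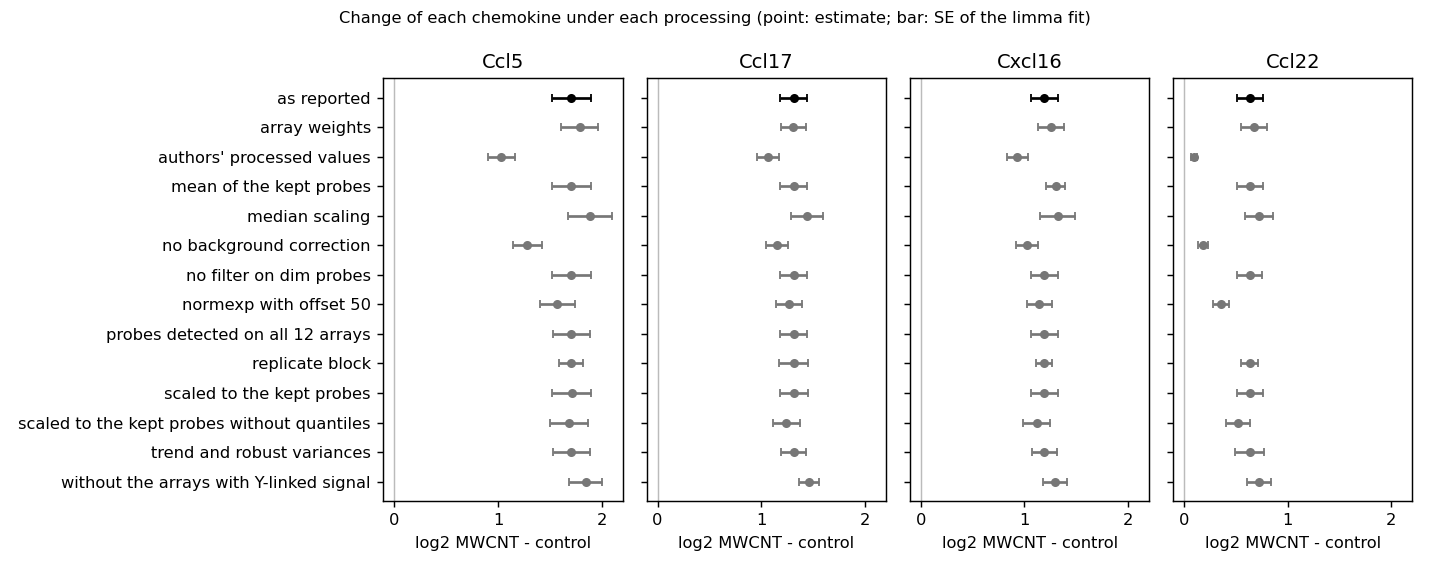
Change with MWCNT (x axis, log2 MWCNT minus control; points are estimates and bars the SE of the limma fit) of Ccl5, Ccl17, Cxcl16 and Ccl22 as reported and under each other processing (y axis). All estimates lie above 0, that of Ccl22 falls from 0.63 to 0.09 in the authors' processed values, and Ccl22 has no value where only probes detected on all 12 arrays were kept.

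The receptors of these chemokines were mostly below detection in the lavage cells. Of 9 listed receptors and binding proteins 8 were on the array and 2 were tested. Ccr1, Ccr3, Ccr4, Ackr1 and Ackr2 were detected on no array, and Cxcr6 on 1 MWCNT array. Ccrl2, an atypical chemokine receptor gene, differed by 0.65 ± 0.22 (adjusted p = 0.0673). It was called without MWCNT array 5 (0.77, adjusted p = 0.0277), without control array 3 (0.75, adjusted p = 0.0483) and without both arrays that carried Y-linked signal (0.87, adjusted p = 0.0202). Ackr4, a scavenging receptor gene, differed by 0.27 ± 0.13 (adjusted p = 0.194), and was called with median scaling (0.51, adjusted p = 0.0145).

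Of 17 other CC chemokines 10 were tested, 8 were called raised, none fell and 2 were not called. Over all features 6.98% were called raised. Their median change was 1.12 for the 10 tested genes (1.01 where those below background are set to their bound). Ccl2 and Ccl8 were detected on no control array, so that a fall could not be seen for them. Ccl8 was detected on 3 MWCNT arrays, but its bound lay under 1 and no fold is given. The CCR2 ligand genes Ccl7 and Ccl12 rose by 2.87 ± 0.37 (adjusted p = 0.000253) and 1.41 ± 0.22 (adjusted p = 0.000988), and Ccl2 was higher by at least 2.05-fold (adjusted p = 0.00342). Ccl27a, a skin T cell attractant, differed by -0.12 ± 0.14 (adjusted p = 0.632). When only probes detected on all 12 arrays were kept, 4 of these genes were called raised. Of 16 other CXC, XC and CX3C chemokines 10 were tested, 3 rose, 1 fell and 6 were not called, with a median of 0.13 (0.04 with bounds). Cxcl10, an interferon-induced T cell attractant detected on 1 control array, rose by 1.25 ± 0.26 (adjusted p = 0.00684), and Pf4, best known from platelets, by 0.87 ± 0.15 (adjusted p = 0.00175). Xcl1, detected on 3 MWCNT arrays only, was called (adjusted p = 0.0118), but its bound lay under 1 and no fold is given. Cxcl14 fell by 0.53 ± 0.11 (adjusted p = 0.00691).

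Of 8 enzymes known to cut or shed chemokines 7 were tested, 4 rose, none fell and 3 were not called. This stands beside 6.98% of all features called raised. When only probes detected on all 12 arrays were kept, 2 of the enzymes were called raised. Mmp2 was detected on no control array and entered the test through its MWCNT arrays alone. Dpp4, the dipeptidyl peptidase that trims CCL5 and CCL22, rose by 1.37 ± 0.22 (adjusted p = 0.00137). Mmp12 and Mmp14 rose by 3.30 ± 0.22 (adjusted p = 3.72e-06) and 1.94 ± 0.28 (adjusted p = 0.000557), and Mmp2 was higher by at least 2.46-fold (adjusted p = 0.000503). The sheddase gene Adam10, detected on 1 control array and 3 MWCNT arrays, differed by 0.46 ± 0.16 (adjusted p = 0.0753). Adam17 differed by 0.13 ± 0.08 (adjusted p = 0.325).

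Genes of pathways known to act on these chemokine genes are counted beside the 12.9% of all features called in either direction. Of 20 type 2 cytokine pathway genes 18 were tested, 4 rose, 1 fell and 13 were not called, with a median of 0.13. Mgl2, a lectin of alternatively activated macrophages, rose by 1.37 ± 0.15 (adjusted p = 6.87e-05), Arg1 was higher by at least 9.74-fold (adjusted p = 0.000206) and Retnla higher by at least 7.10-fold (adjusted p = 0.00118). Cdh1, the E-cadherin gene, rose by 0.40 ± 0.08 (adjusted p = 0.00649), while the transcription factor gene Klf4 fell by 0.37 ± 0.08 (adjusted p = 0.00743). Stat6, the transducer of interleukin-4, differed by 0.29 ± 0.13 (adjusted p = 0.154) and Chil3 by -0.08 ± 0.06 (adjusted p = 0.431). Scaled to the kept probes without quantiles Chil3 was called lowered (-0.36, adjusted p = 0.00574). Il4 was detected on 1 MWCNT array and Il13 differed by 0.03 ± 0.10 (adjusted p = 0.897).

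Of 19 interferon pathway genes 15 were tested, 4 rose, none fell and 11 were not called, with a median of 0.13. Oasl2, Usp18 and Ifit3 rose by 1.77 ± 0.30 (adjusted p = 0.00159), 2.16 ± 0.37 (adjusted p = 0.00191) and 1.65 ± 0.38 (adjusted p = 0.0115). Isg15 was called raised (0.69 ± 0.21, adjusted p = 0.0430), a call that ended without any 1 of 9 arrays, MWCNT arrays 1, 2, 4 and 6 and all control arrays but array 3 (adjusted p from 0.0544 to 0.0837). Irf3 differed by -0.12 ± 0.07 (adjusted p = 0.281), and Ifng was detected on no array. Of 16 NF-kB pathway genes 14 were tested, 1 rose, 1 fell and 12 were not called, with a median of 0.07. Il1a rose by 0.92 ± 0.17 (adjusted p = 0.00352) and Rela differed by -0.06 ± 0.08 (adjusted p = 0.691). Ikbkb, a kinase subunit gene, was called lowered (-0.22 ± 0.06, adjusted p = 0.0416), a call that ended without any 1 of MWCNT arrays 1 to 5 or control arrays 3 to 6 (adjusted p from 0.0527 to 0.0882). Of 8 GM-CSF pathway genes 6 were tested, 1 rose, none fell and 5 were not called. Jak2 was called raised (0.33 ± 0.08, adjusted p = 0.0203) but no longer when MWCNT arrays 5 and 6 were left out (0.25, adjusted p = 0.0826). Csf2ra differed by 0.02 ± 0.09 (adjusted p = 0.914).

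**Figure D3:**
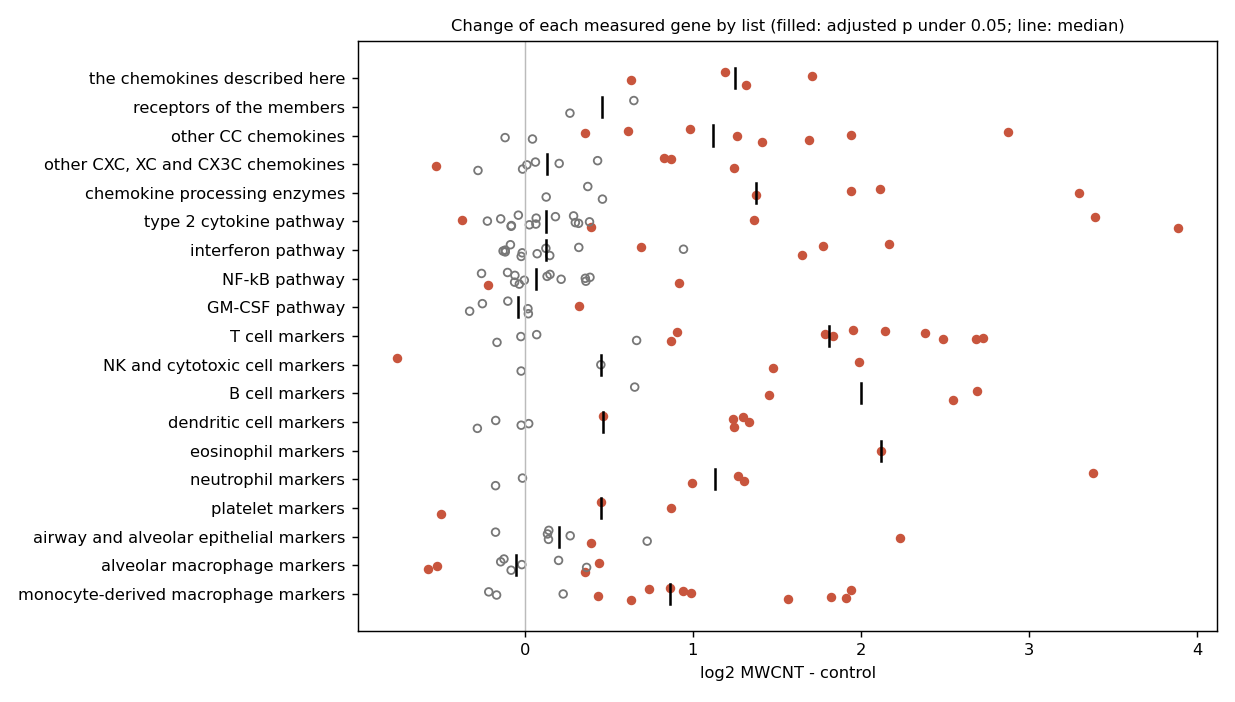
Change with MWCNT (x axis, fitted log2 MWCNT minus control) of every tested gene, 1 point per gene, grouped by list (y axis), with a vertical line at each list's median and filled points for adjusted p under 0.05. The chemokines described here have a median of 1.25, the other CC chemokines 1.12 and the T cell markers 1.81, and the type 2, interferon and NF-kB lists have medians from 0.07 to 0.13.

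Markers of lymphocytes were higher on the MWCNT arrays too. Of 20 T cell markers 17 were on the array, and 14 were tested, 10 rose, none fell and 4 were not called, with a median of 1.81 (1.36 with bounds). Over all features 6.98% were called raised. Of the 14 markers 6 were detected on all control arrays and 4 on none. When only probes detected on all 12 arrays were kept, 3 T cell markers were called raised. The T cell receptor complex genes Cd3e and Cd3d rose by 2.49 ± 0.27 (adjusted p = 7.29e-05) and 2.68 ± 0.30 (adjusted p = 8.63e-05), Il7r by 2.38 ± 0.21 (adjusted p = 3.10e-05) and Icos by 1.78 ± 0.19 (adjusted p = 6.87e-05). Cd4, Cd8a and Cd5 were detected on no array. Cd2, Cd8b1 and Foxp3 were at 12.84, 12.02 and 11.08 in controls and were not called. The summed linear intensity of the 14 markers ran from 13427 to 15295 in controls and from 13971 to 17874 with MWCNT. Most of the control sum came from Cd2, Cd8b1 and Foxp3, which were not called. The mean log2 level of the 14 markers ran from 6.91 to 7.23 in controls and from 7.74 to 9.01 with MWCNT. The part of T cells in the rise of Ccl5, which T and NK cells also express, was not tested. In these bulk samples more cells of a type and more RNA per cell cannot be told apart, nor can fewer cells and less RNA per cell.

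Markers of other cells that can make these chemokines also moved. Of 14 dendritic cell markers 9 were tested, 5 rose, none fell and 4 were not called, with a median of 0.46 (0.02 with bounds). Ccr7 and Itgae rose by 1.24 ± 0.16 (adjusted p = 0.000249) and 1.24 ± 0.18 (adjusted p = 0.000567), and Fscn1 and Siglech by 1.33 ± 0.23 (adjusted p = 0.00191) and 1.30 ± 0.23 (adjusted p = 0.00254). H2-DMb2 differed by -0.17 ± 0.10 (adjusted p = 0.269). Flt3, Xcr1, Clec10a and Tbc1d4 were detected on no array. The mean log2 level of the 9 tested markers ran from 8.07 to 8.41 in controls and from 8.49 to 9.13 with MWCNT, and their summed intensity from 8959 to 11690 in controls and from 9615 to 12515 with MWCNT.

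Of 10 NK and cytotoxic cell markers 5 were tested, 2 rose, 1 fell and 2 were not called. Klrd1 rose by 1.48 ± 0.18 (adjusted p = 0.000203) and Nkg7 was higher by at least 2.78-fold (adjusted p = 0.00703). Prf1 was called lowered (-0.76 ± 0.21, adjusted p = 0.0294), a call that ended without control array 6 or MWCNT array 1, 2 or 3 (adjusted p from 0.0527 to 0.0632). Klrk1 differed by 0.45 ± 0.15 (adjusted p = 0.0708), and was called without MWCNT array 5 or control array 2 (adjusted p from 0.0334 to 0.0363). Ncr1, Gzmb and Eomes were detected on no array, and the summed intensity ran from 906 to 2086 in controls and from 956 to 1390 with MWCNT. Of 9 B cell markers 4 were tested, 3 rose, none fell and 1 was not called. None of the 4 was detected on a control array. They entered the test through their MWCNT arrays alone, so that a fall could not be seen. Cd79b was higher by at least 4.29-fold (adjusted p = 0.00399), Blk higher by at least 3.27-fold (adjusted p = 0.00499) and Blnk higher by at least 2.02-fold (adjusted p = 0.00191), while Fcer2a was below background in controls and not called (adjusted p = 0.118). Pax5 and Cr2 were detected on no array, and the summed intensity ran from 109 to 129 in controls and from 136 to 1279 with MWCNT.

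Of 15 monocyte-derived macrophage markers 13 were tested, 10 rose, none fell and 3 were not called, with a median of 0.86 (0.74 with bounds). The complement genes C1qb and C1qc rose by 1.91 ± 0.19 (adjusted p = 5.58e-05) and 1.82 ± 0.19 (adjusted p = 6.87e-05), Gpnmb by 0.94 ± 0.08 (adjusted p = 2.30e-05), and F13a1 was higher by at least 1.26-fold (adjusted p = 0.000240). Cd14 differed by -0.17 ± 0.19 (adjusted p = 0.631). The summed intensity ran from 20542 to 24074 in controls and from 30630 to 42083 with MWCNT. Of 15 alveolar macrophage markers 10 were tested, 2 rose, 2 fell and 6 were not called, and their mean log2 level ran from 12.67 to 12.75 in controls and from 12.63 to 12.79 with MWCNT. Scaled to the kept probes without quantiles, none of them rose and 5 fell. Car4 was called raised (0.36 ± 0.09, adjusted p = 0.0179) but not with that scaling (0.18, adjusted p = 0.164), while Cidec fell by 0.58 ± 0.07 (adjusted p = 0.000243) and Krt79 by 0.52 ± 0.08 (adjusted p = 0.000631). Lpl differed by -0.02 ± 0.06 (adjusted p = 0.894) and was called lowered with that scaling (-0.32, adjusted p = 0.00714).

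Of 12 neutrophil markers 6 were tested, 4 rose, none fell and 2 were not called. S100a9 was higher by at least 6.29-fold (adjusted p = 3.72e-06) and Il1r2 higher by at least 1.55-fold (adjusted p = 5.20e-05), S100a8 rose by 1.27 ± 0.18 (adjusted p = 0.000439) and Cxcr2 by 0.99 ± 0.20 (adjusted p = 0.00613), and Ltf differed by -0.01 ± 0.37 (adjusted p = 0.986). Mpo, Elane, Camp and Ngp were detected on no array, and the summed intensity ran from 2593 to 4148 in controls and from 4398 to 8143 with MWCNT. Eosinophils are cells that CCL24 attracts, and of their 9 markers only Ear6 was tested. It rose by 2.12 ± 0.21 (adjusted p = 5.63e-05) but belongs to a family of near-identical genes, and Epx, Ccr3, Siglecf and Alox15 were detected on no array. Its linear intensity ran from 361 to 679 in controls and from 1257 to 3350 with MWCNT.

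Of 10 platelet markers 3 were tested, of which 2 rose and 1 fell. Besides Pf4, Treml1 was called raised (0.45 ± 0.14, adjusted p = 0.0466), a call that ended without any 1 of MWCNT arrays 1, 2, 3, 4 and 6 or control arrays 2, 3, 5 and 6 (adjusted p from 0.0699 to 0.0933). Gp5, detected on 3 control arrays and no MWCNT array, was at least 1.05-fold lower (adjusted p = 0.0288), a call that ended without MWCNT array 2, 3, 4 or 6 (adjusted p from 0.0527 to 0.0566). Ppbp and Gp1bb were detected on no array, and the summed intensity ran from 208 to 315 in controls and from 293 to 466 with MWCNT. Of 10 airway and alveolar epithelial markers 8 were tested, 2 rose, none fell and 6 were not called. Besides Cdh1, the club cell gene Scgb1a1 rose by 2.23 ± 0.53 (adjusted p = 0.0135), and Cyp2f2 differed by 0.73 ± 0.38 (adjusted p = 0.233). Epcam was detected on no array, and the summed intensity ran from 2743 to 14215 in controls and from 8145 to 29995 with MWCNT. The parts of these cells in the chemokine changes were not tested.

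MWCNT array 5 had the lowest level of Ccl5, Ccl17, Ccl22 and the brighter Cxcl16 probe in its group. It also had the lowest mean level of its group in every pathway and marker list but 2. The GM-CSF pathway was lowest on MWCNT array 6 and the alveolar macrophage markers on MWCNT array 1. The mean T cell marker level of MWCNT array 5 was 7.74, and the next lowest was 8.17. Correlations over the 6 arrays of a group were computed for the 4 chemokines with each other and with the mean T cell marker level, 20 in all over both groups, and none passed after adjustment. Among MWCNT arrays Ccl5 and the T cell markers had Pearson r = 0.92 (exact permutation p = 0.0222, adjusted 0.148) and Spearman rho = 0.89 (exact permutation p = 0.0333, adjusted 0.222). Without the 2 arrays farthest from the median of Ccl5, arrays 1 and 5, r was 0.72. Ccl17 and the T cell markers had Pearson r = 0.66 (exact permutation p = 0.222, adjusted 0.355) and Spearman rho = 0.43 (exact permutation p = 0.419, adjusted 0.699), and r became -0.96 without arrays 2 and 5, so that the positive value rested on those arrays. Ccl17 and Cxcl16 had Pearson r = 0.93 (exact permutation p = 0.0694, adjusted 0.238) and Spearman rho = 0.77 (exact permutation p = 0.103, adjusted 0.514), with r = 0.42 without arrays 2 and 5. Among control arrays Ccl17 and the T cell markers had Pearson r = -0.96 (exact permutation p = 0.00278, adjusted 0.0556) and Spearman rho = -1 (exact permutation p = 0.00278, adjusted 0.0556), with r = -0.97 without arrays 1 and 5.

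**Figure D4:**
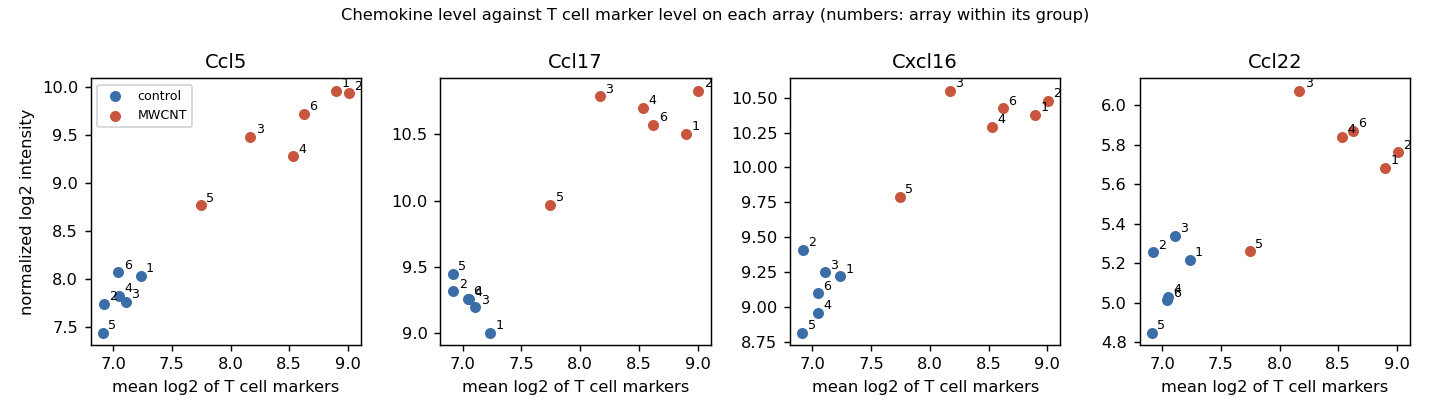
Normalized log2 intensity of Ccl5, Ccl17, Cxcl16 and Ccl22 (y axes) against the mean log2 level of the 14 tested T cell markers (x axis), 1 numbered point per array, control and MWCNT in 2 colours. MWCNT array 5 lies lowest of its group on both axes for all 4 genes, and among MWCNT arrays Ccl5 has r = 0.92 with the markers.

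The genes with the most similar pattern were found from deviations from the group means over the 12 arrays, among 8382 named genes detected on all arrays (8383 for Ccl22), so that the difference between groups had no part. For Ccl5 they were Klhdc3 (r = 0.91), the T cell costimulator gene Icos (r = 0.89) and the interferon-induced Oasl2 (r = 0.88). Klhdc3 differed by -0.13 ± 0.09 (adjusted p = 0.343). For Ccl17 they were Fgfbp3 (r = 0.89), Ly6e (r = 0.87) and Marcks (r = 0.86). Marcks, a cytoskeletal regulator gene, was called raised by 1.43 ± 0.13 (adjusted p = 3.10e-05). Fgfbp3 and Ly6e differed by 0.58 ± 0.20 (adjusted p = 0.0712) and 0.27 ± 0.10 (adjusted p = 0.0784), and both were called without MWCNT array 5 (0.75, adjusted p = 0.00389; 0.33, adjusted p = 0.0328).

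For Cxcl16 the most similar were Mrps7 (r = 0.91), the scavenger receptor gene Marco (r = 0.90) and Cacfd1 (r = 0.89). For Ccl22 they were Marco (r = 0.94), Cacfd1 (r = 0.93) and Abcb8 (r = 0.93). Marco was called raised (0.44 ± 0.13, adjusted p = 0.0442), a call that ended without any 1 array except control array 1 and MWCNT array 5 (adjusted p from 0.0524 to 0.0915). Mrps7, Cacfd1 and Abcb8 differed by 0.07, 0.04 and 0.18, with adjusted p from 0.198 to 0.824. These values are the highest among all genes compared and are given as a description.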

How the data were processed

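RNA of alveolar macrophages from 6 control and 6 MWCNT mice was measured on 12 Illumina Mouse WG-6 v2 arrays. The deposited scanner table holds linear intensity values not normalized between arrays and a detection p-value per probe and array, per the file headers. The authors' processed intensity values served as an alternative. Per the submitters' processing notes the tool was lumi, with settings not given in the sources used.

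In R 4.3.3 with limma 3.58.1, neqc corrected background from the detection p-values (offset 16), normalized by quantiles and took log2. Probes with a detection p under 0.05 on at least 3 arrays were kept (19291), and the brightest kept probe stood for each gene (13210 features, 10143 named). Of the 45281 probes 34885 had 1 gene symbol, 18 several and 10378 none. The group comparison used lmFit and eBayes with no covariate, two-sided, with Benjamini-Hochberg adjustment over all features; adjusted p-values in the report are from this fit unless called exact. The fit was tested on simulated data. Beside a fold given as at least a value, the adjusted p is that of the fitted change. These bounds were computed with the main background correction. Exact permutation tests used Python 3.11.15 with SciPy 1.17.1. The number of arrays limits precision. The genes, lists and tests were chosen with earlier results of these data known.

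Genes named are the chemokines, their tested receptors, from each list up to 4 called genes by adjusted p and the brightest not called, and the 3 most similar genes of each chemokine; any other was named after its values were seen. Alternatives changed background correction, normalization, filter, probe choice, variance model, array weights, replicate block and arrays.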

Additional observations from a re-analysis of the deposited data

Results flagged for a closer look

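On the brighter Cxcl16 probe MWCNT array 5 stood far below the other MWCNT arrays, at 9.79 on the log2 scale with the nearest other at 10.29. The gap was 0.660 of the group's range, above the critical ratio of 0.625. It was the only such array among 12 groups of 6 values (6 probes in each of 2 groups), and chance flags about 1 in 20 groups. Without it the change of Cxcl16 was 1.30 (limma adjusted p = 3.30e-06).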

How the results depend on the processing

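Ccl5, Ccl17 and Cxcl16 were called raised under all 25 alternatives (13 of processing or arrays, 12 leaving out 1 array), and Ccl22 under the 24 that tested it, since it dropped out when only probes detected on all 12 arrays were kept. Leaving out 1 array gave changes from 1.62 to 1.86 for Ccl5, 1.26 to 1.43 for Ccl17, 0.57 to 0.73 for Ccl22 and 1.13 to 1.30 for Cxcl16. The other alternatives gave from 1.03 to 1.89 for Ccl5, 1.06 to 1.46 for Ccl17, 0.09 to 0.73 for Ccl22 and 0.93 to 1.32 for Cxcl16. Of the 3 pairs of changes without Ccl22, 1 passed the threshold, and from 0 to 2 under the alternatives.

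Median scaling moved the median change of all features to 0.10 and the calls from 922 raised and 778 lowered to 1688 and 214. Scaling to the kept probes without quantiles, chosen after seeing the data, moved them to -0.10, 809 and 1861. In the lists 63 genes were raised, 32 when only probes detected on all 12 arrays were kept, where fewer genes were tested, and 55 to 69 leaving out 1 array. With that filter 3 T cell, 3 dendritic cell, 1 neutrophil, 1 NK and 0 B cell markers were raised. The 7 lowered became 4 with median scaling, 15 with scaling to the kept probes without quantiles and 4 to 7 leaving out 1 array. Probes detected on all 12 arrays gave 1111 calls over all features in place of 1700.

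Values that changed sign were those of genes not called, and none was called with the other sign. With the mean of the kept probes Cacfd1 was -0.010, Ccl27a 0.0039 and Chil3 0.10. With median scaling Ccl27a was 0.10, Klhdc3 0.0029 and Ltf 0.13. Scaled to the kept probes without quantiles, Csf2ra was -0.15 and Mrps7 -0.044; Cd2 (-0.32, adjusted p = 0.00817), Irf3 (-0.27, adjusted p = 0.0144) and H2-DMb2 (-0.33, adjusted p = 0.0203) were called lowered. Without the arrays with Y-linked signal Ccl27a was 0.063 and Ltf 0.18. Leaving out 1 array gave ranges across 0 for 5 genes: Cacfd1 from -0.0051 to 0.097, Csf2ra from -0.024 to 0.074, Lpl from -0.033 to 0.0028, Ltf from -0.20 to 0.22 and Rela from -0.084 to 0.00031. The difference between the changes of Ccl5 and Ccl17 became -0.031 in the authors' processed values. The causes were not tested.

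Same-numbered arrays of the 2 groups had deviations correlated from -0.18 to 0.15, so the numbers were not taken to pair the animals. With the replicate number as a block the changes were 1.71 for Ccl5 (limma adjusted p = 0.000201), 1.31 for Ccl17 (0.00107), 0.63 for Ccl22 (0.00322) and 1.19 for Cxcl16 (0.000175), the pair Ccl5 and Ccl17 passed (0.39, exact adjusted p = 0.0375), and 850 features were raised and 638 lowered. Of the 6 control arrays 3 correlated best with the MWCNT array of the same number. Signal close to background limits Ccl22 and Ccl24.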
